A study of Homo sapiens with 9 samples.

Results

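The genes described here are 31 members of the p53 pathway: proteins that restrain p53, and genes known as direct transcriptional targets of p53. They were chosen by gene symbol, by a rule that uses no measured value, and were found in the count files through their Ensembl identifiers. All 31 were present among the 60675 genes of the files, and all 31 were among the 19278 genes that passed the filter on low counts, so none was lost from any comparison.

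RNA was sequenced from LNCaP:C4-2 cells, a castrate-resistant derivative of the LNCaP prostate cancer cell line, in 3 groups of 3 libraries. The cells had been transduced with lentivirus carrying a puromycin resistance gene and a doxycycline-inducible short hairpin RNA (shRNA), and were puromycin-selected. The control group carried a hairpin that targets no gene (shScramble), and the other groups carried 1 of 2 hairpins against the RNA methyltransferase gene METTL3, which the sample labels call guide 2 and guide 1. The labels describe 1 µg/ml doxycycline for 6 days in androgen-depleted medium (phenol red-free, with charcoal-stripped serum) for all groups. The titles of the samples also mention a vehicle and do not say which. In the study's methods ethanol is the vehicle control for androgen treatment. The study's methods speak of selected stable clones and do not say how many were used, and nothing in the labels says that the 3 libraries of a group came from separate cultures, so the p-values measure only the spread between these libraries.

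METTL3 itself was checked first. Its normalised read count, in CPM (the gene's counts relative to the library total, scaled by edgeR's TMM factors), was 29.8, 31.7 and 33 in shScramble and 16.6, 16.5 and 15.8 with guide 2, a log2 fold change (hairpin against shScramble) of -0.95. In the libraries labelled guide 1 it was 29.4, 30.1 and 29.6 CPM, a log2 fold change of -0.08 that did not pass the test. METTL3 RNA was thus lowered with guide 2 alone, and the other libraries with a METTL3 hairpin are called guide 1 by their label only. The total count per library lay between 21899501 and 30897639. Fewer genes had a count with guide 2 (24884 to 26505) than in the other groups (28459 to 29628), and the mitochondrially encoded share of counts was 3.78 to 4.92% with guide 2, 5.08 to 5.3% with guide 1 and 5.96 to 6.34% in shScramble. All 10 prostate luminal markers were detected in every group, with a summed level of 3052 to 3109 CPM in shScramble, 3524 to 3662 with guide 2 and 1571 to 1628 with guide 1. Not all moved with the sum. With guide 2, KRT8, KRT18, KLK2 and KLK3 had lower means than in shScramble, and the others higher ones. With guide 1 only KLK3 had a higher mean (14.5 against 13.1 CPM). Basal markers (KRT5, KRT14, KRT15 and TP63) summed to at most 0.199 CPM in any library, and immune markers to at most 0.526, with PTPRC and CD3E at or under the floor of 3 counts in every group. Neuroendocrine markers summed to 12 to 13 CPM in shScramble, 14.6 to 17.2 with guide 2 and 38.2 to 42.5 with guide 1. With guide 2 only ENO2 had a higher mean than in shScramble (12.4 against 6.6 CPM), and CHGA, SYP and INSM1 had lower ones. Fibroblast markers summed to 43.5 to 46.7 CPM in shScramble, 37.3 to 40.6 with guide 2 and 19.6 to 26.2 with guide 1. Most of this sum was COL1A1, COL1A2 and LUM were at or under the floor, and PDGFRB had a higher mean with guide 2 (4.02 CPM) than in shScramble (1.63). Endothelial markers summed to at most 3.49 CPM, with PECAM1 at or under the floor. These levels moved with the groups, and their part in the results below was not tested.

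p53 is a transcription factor that is stabilised when DNA is damaged or the cell is otherwise stressed. In unstressed cells it is held at a low level by MDM2, a ubiquitin ligase, together with its relative MDM4, and MDM2 is itself a p53 target, which closes a feedback loop. Active p53 binds a pair of adjoining half-sites in DNA and switches on genes of growth arrest, apoptosis, DNA repair and metabolism. LNCaP cells and their derivatives are generally regarded as carrying an intact p53 gene. Several of these genes, GDF15, SESN2 and GADD45A among them, are also switched on by other stress pathways, so their RNA is not a readout of p53 alone. No protein was measured here, so the data concern RNA levels. In bulk RNA, a smaller number of cells expressing a gene and less of its RNA per cell cannot be told apart.

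Promoter sequences are shown for the members in which the p53 half-site was found close to the start, because that site is the feature by which these genes are grouped as p53 targets. RefSeq promoter windows (GRCh38.p14, from 250 bases before to 50 after each gene's start) were held for 25 of the 31 genes, and none was held for TP53INP1, RRM2B, TNFRSF10B, PHLDA3, GADD45A and CMBL. The p53 half-site, searched on both strands, was found in 6 of the 25 (24%), against 8.06% of all 27305 genes with a window. Most members were chosen as known p53 targets, so a higher share is not an independent result. Sites outside the windows were not searched, so a gene without a match may hold one elsewhere. In the lines that follow the half-site is in capitals, in its 30-base surrounding, read 5′ to 3′ on the gene's strand. The start named is that of the window, not of the annotated gene. For SESN1 it lies well inside the gene, which spans 108986437 to 109094819 in the authors' annotation.
PLK2, chr5:58460199-58460228, minus strand, 132 bases before the start: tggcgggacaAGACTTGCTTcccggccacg
SESN1, chr6:109009018-109009047, minus strand, 49 bases before the start: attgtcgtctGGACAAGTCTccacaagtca
FAS, chr10:88991299-88991328, plus strand, 122 bases before the start: cggaactcctGGACAAGCCCtgacaagcca
AEN, chr15:88621296-88621325, plus strand, 34 bases before the start: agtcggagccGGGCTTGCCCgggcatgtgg
FDXR, chr17:74872986-74873015, minus strand, 11 bases before the start: gggcaggagcGGGCTTGCCCtgcggagcag

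DDB2 was the one member with a full site, that is, 2 half-sites with at most 13 bases between them, and its site began at base 6 after the start. Only 10 of the 27305 genes (0.0366%) held a full site in such a window. The full site is shown in capitals.
DDB2, chr11:47214975-47215004, plus strand: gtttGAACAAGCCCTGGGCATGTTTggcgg

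The letters TGATGCAA, the element bound by ATF4 and C/EBP proteins, were in the windows of 0 of the 25 genes, against 1.08% of all genes. The cell cycle element TTTGAA was in 4 (16%, against 18.2%), in DDB2, FAS, MDM4 and ZMAT3, and the TATA box letters TATAAA were in GDF15 alone (4%, against 14%). Both strands were searched, and none of these letter strings contains another. A match is a description of the letters in these windows. The 6 genes with a half-site did not share 1 pattern of expression: PLK2 was called lower with both hairpins, FDXR was called lower with guide 1, and SESN1, FAS, AEN and DDB2 were not called in any comparison.

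A gene was called when its Benjamini-Hochberg adjusted p in edgeR's quasi-likelihood test was under 0.05 over all genes tested and its fold change was at least 1.5 (0.58 on the log2 scale). With guide 2 against shScramble, 1 of the 31 genes was called higher (CMBL) and 7 were called lower (GDF15, GADD45A, BBC3, SESN2, MDM4, SPATA18 and PLK2). Over all genes, 8.85% were called higher and 20.4% lower. The members' median log2 fold change was -0.08, beside -0.04 over all genes. With guide 1 against shScramble, 2 were called higher (SESN2 and APAF1) and 5 lower (TP53I3, TP53INP1, GDF15, FDXR and PLK2), against 21.2% and 16.5% of all genes, and the median was -0.07 beside -0.02. In both comparisons the share of members called lower (22.6% and 16.1%) was close to the share of all genes called lower. The share called higher (3.23% and 6.45%) was below that of all genes. The shares of all genes differ between classes of expression, and the members are set against their own classes below.

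**Figure D1:**
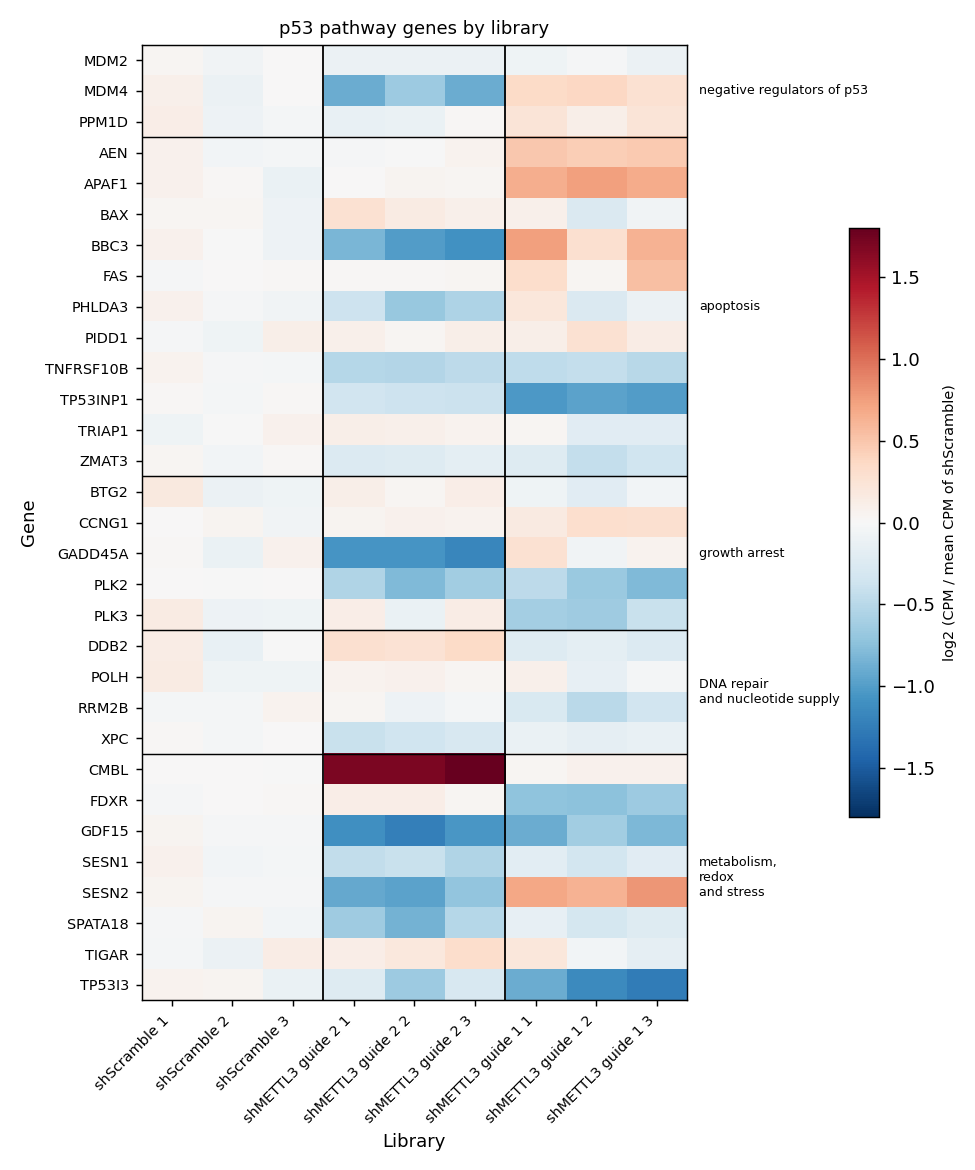
Level of the 31 p53 pathway genes in each of the 9 libraries, as the log2 ratio of the library's CPM to the shScramble mean (colour scale, red higher and blue lower), with genes in rows by role and libraries in columns by group. The 3 libraries of a group resemble each other, and CMBL with guide 2 and SESN2, MDM4 and BBC3, which are blue with guide 2 and red with guide 1, stand out.

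When the tested genes were split into tertiles of mean expression, 16 members were in the highest, 15 in the middle and 0 in the lowest. Of the 16, 4 were called lower with guide 2 (25%), a class in which 3.38% of genes were called lower, and 1 was called higher (10.7% of genes in the class). Of the 15, 3 were called lower (19.5% of genes) and 0 higher (9.41% of genes). With guide 1, 3 of the 16 were called lower (10.3% of genes) and 1 higher (10.7%), and 2 of the 15 were called lower (17.4%) and 1 higher (25.3%). Counted without a fold limit, 14 of the 31 were lower and 4 higher with guide 2 at an adjusted p under 0.05 (31.7% and 30% of all genes). With guide 1, 13 were lower and 8 higher (33% and 35.4%), and between the hairpins 13 were lower and 11 higher (39.9% and 34.7%).

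Guide 2 and guide 1 were also compared directly, which tests whether their libraries differ. Each hairpin was in its own selected cells. An effect of a hairpin and a difference between the selected cells thus cannot be told apart, here or against shScramble. Of the 31 genes, 5 were higher with guide 2 (CMBL, FDXR, TP53I3, TP53INP1 and PLK3) and 5 lower (SESN2, BBC3, GADD45A, MDM4 and APAF1), where 19.1% and 28.2% of all genes were called (47.3% in either direction). In all, 13 of the 31 members were called in at least 1 of the 3 comparisons and 18 in none. Of all genes, 47.3% were called in the direct comparison alone, and their share over the 3 comparisons was not counted. The comparisons with shScramble share the same 3 control libraries. GDF15 and PLK2 were called lower in both of them, as were 4.18% of all genes, and SESN2 was called lower with guide 2 and higher with guide 1, as were 7.56%.

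**Figure D2:**
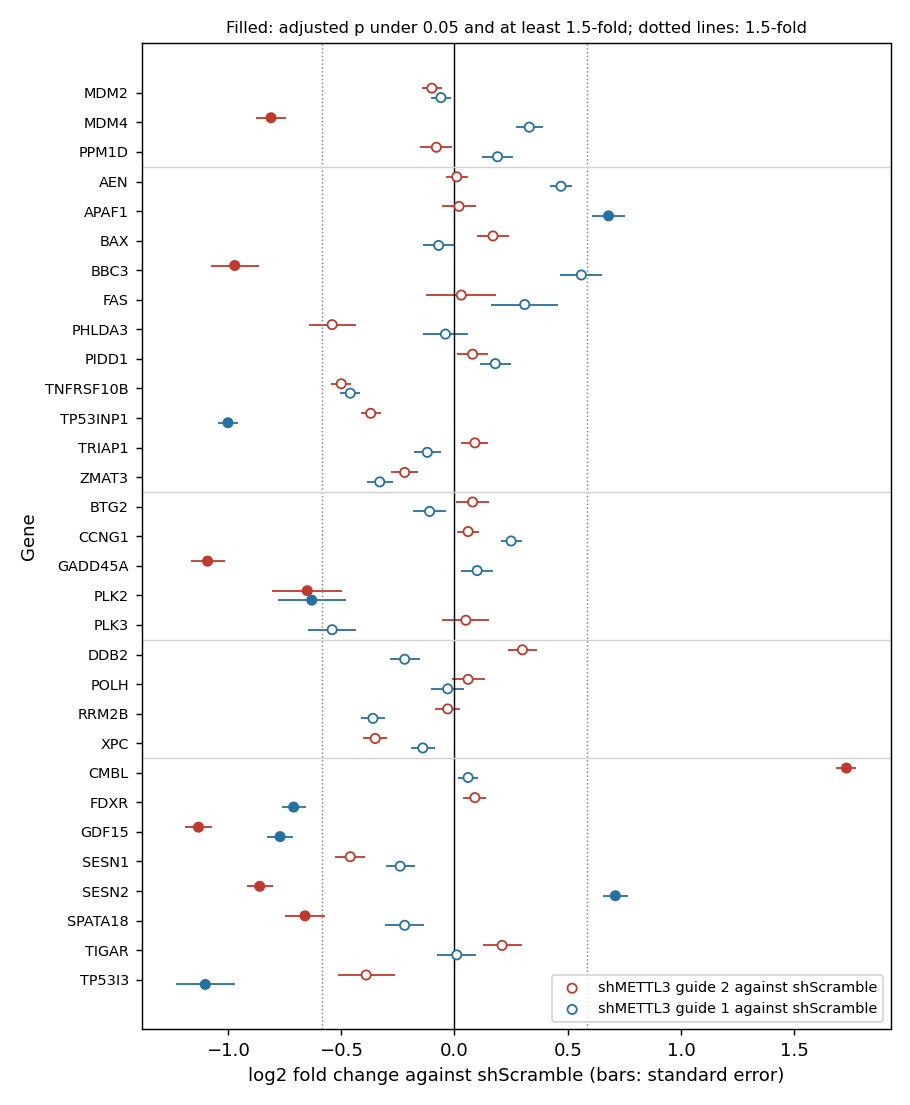
Log2 fold change of each of the 31 genes with guide 2 (red) and guide 1 (blue) against shScramble, with the standard error as a bar, filled where the gene was called and with dotted lines at a 1.5-fold change. Values run from -1.13 (GDF15) to 1.73 (CMBL) with guide 2 and from -1.10 (TP53I3) to 0.71 (SESN2) with guide 1.

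Of the negative regulators of p53, MDM4 fell with guide 2, and MDM2 and PPM1D were not called in any comparison. MDM4 (ENSG00000198625; chromosome 1, 204516379 to 204558120), which binds p53 and blocks its activation domain, was at 67.3, 58.6 and 63 CPM in shScramble, 33.8, 40.1 and 34 with guide 2 and 79.9, 81.6 and 76.2 with guide 1. The 3 groups did not overlap, with guide 2 lowest and guide 1 highest. The log2 fold change was -0.81 with guide 2 (standard error, SE, 0.0642, adjusted p = 3.12e-11) and 0.33 with guide 1 (SE 0.06, adjusted p = 2.22e-05), the latter under the 1.5-fold limit. Between the hairpins it was -1.14 (SE 0.0636, adjusted p = 4.19e-15).

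MDM2 (ENSG00000135679; chromosome 12, 68808172 to 68850686), the ubiquitin ligase and feedback target, was at 124, 116 and 121 CPM in shScramble, 113, 112 and 112 with guide 2 and 115, 119 and 112 with guide 1. Its level thus differed little between the groups, with log2 fold changes of -0.10 (SE 0.0455, adjusted p = 0.0525) and -0.06 (SE 0.0451, adjusted p = 0.224). Other genes share 9.22% of its exon bases in the authors' annotation. PPM1D, the phosphatase that reverses stress-induced phosphorylation of p53, had a mean of 27.8 CPM in shScramble, 26.4 with guide 2 and 31.8 with guide 1.

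The largest rise and fall with guide 2 were among the 8 genes of metabolism, redox control and stress, of which 1 rose and 3 fell with guide 2 and 1 rose and 3 fell with guide 1. CMBL (ENSG00000164237; chromosome 5, 10275875 to 10308026), a cytosolic hydrolase, was at 111, 112 and 110 CPM in shScramble, 361, 360 and 384 with guide 2 and 114, 117 and 117 with guide 1. Guide 2 stood above both other groups by a wide margin. Its level was 3.31-fold higher than in shScramble, a log2 fold change of 1.73 (SE 0.0443, adjusted p = 5.30e-21), whereas with guide 1 it differed by 0.06 (SE 0.0443, adjusted p = 0.231). Between the hairpins the log2 fold change was 1.67 (SE 0.0442). CMBL shares no exon bases with another annotated gene.

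SESN2 (ENSG00000130766; chromosome 1, 28259527 to 28282491) encodes a sestrin, a stress-induced protein that senses leucine and restrains mTORC1 signalling. It was at 237, 225 and 226 CPM in shScramble, 121, 117 and 140 with guide 2, and 370, 355 and 397 with guide 1. It was the one member called in opposite directions, and the 3 groups did not overlap. The log2 fold change was -0.86 with guide 2 (SE 0.0568, adjusted p = 2.37e-12), 0.71 with guide 1 (SE 0.0553, adjusted p = 2.59e-11) and -1.57 between the hairpins (SE 0.0571, adjusted p = 3.27e-18). Its relative SESN1, with a half-site in a promoter window, was at a mean of 36.3 CPM in shScramble. SESN1 was at 26.4 CPM with guide 2 (log2 fold change -0.46, adjusted p = 9.07e-07) and 30.8 with guide 1 (-0.24, adjusted p = 0.00183). Neither change reached 1.5-fold. An opposite-strand gene shares 7.09% of its exon bases.

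GDF15 (ENSG00000130513; chromosome 19, 18374731 to 18389176), a secreted stress cytokine of the TGF-beta family, was at 433, 410 and 411 CPM in shScramble, 194, 178 and 202 with guide 2, and 226, 270 and 239 with guide 1. It fell with both hairpins, and guide 2 lay below guide 1 without overlap. The log2 fold change was -1.13 with guide 2 (2.18-fold lower, SE 0.0585, adjusted p = 1.04e-13) and -0.77 with guide 1 (1.7-fold lower, SE 0.0577, adjusted p = 2.87e-11). The difference between the hairpins, -0.36 (adjusted p = 7.64e-06), was under the 1.5-fold limit.

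FDXR and TP53I3, which both encode oxidoreductases, fell with guide 1. FDXR (ENSG00000161513; chromosome 17, 74862497 to 74873031), which passes electrons from NADPH to ferredoxin in mitochondria, was at 56.8, 57.7 and 58.5 CPM in shScramble, 62.5, 62.5 and 59.4 with guide 2, and 34.8, 34.5 and 36.6 with guide 1. The libraries labelled guide 1 lay well below the other 6. The log2 fold change was -0.71 with guide 1 (SE 0.0525, adjusted p = 1.79e-12), 0.09 with guide 2 (adjusted p = 0.12) and 0.80 between the hairpins (adjusted p = 9.07e-14). TP53I3 (ENSG00000115129; chromosome 2, 24077433 to 24085861), a quinone oxidoreductase, was at 9.38, 9.26 and 8.24 CPM in shScramble, 7.63, 5.7 and 7.34 with guide 2, and 4.81, 4.03 and 3.75 with guide 1. Its 3 groups did not overlap, with log2 fold changes of -1.10 with guide 1 (SE 0.131, adjusted p = 2.40e-08) and -0.39 with guide 2 (SE 0.126, adjusted p = 0.00958), the latter not by 1.5-fold.

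SPATA18 (ENSG00000163071; chromosome 4, 52051331 to 52097292), which takes part in mitochondrial quality control, was at 17.7, 18.7 and 17.4 CPM in shScramble, 11.6, 10 and 12.6 with guide 2, and 16.3, 14.5 and 15.3 with guide 1. It fell with guide 2 by 0.66 on the log2 scale (SE 0.0902, adjusted p = 4.66e-07). Without guide 2 replicate 2, which had the lowest value, the log2 fold change was -0.57 and the gene was no longer called. With guide 1 it was -0.22 (adjusted p = 0.0214). TIGAR, a phosphatase that lowers glycolytic flux, was not called in any comparison, with means of 26.7, 30.9 and 26.9 CPM in shScramble, guide 2 and guide 1.

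**Figure D3:**
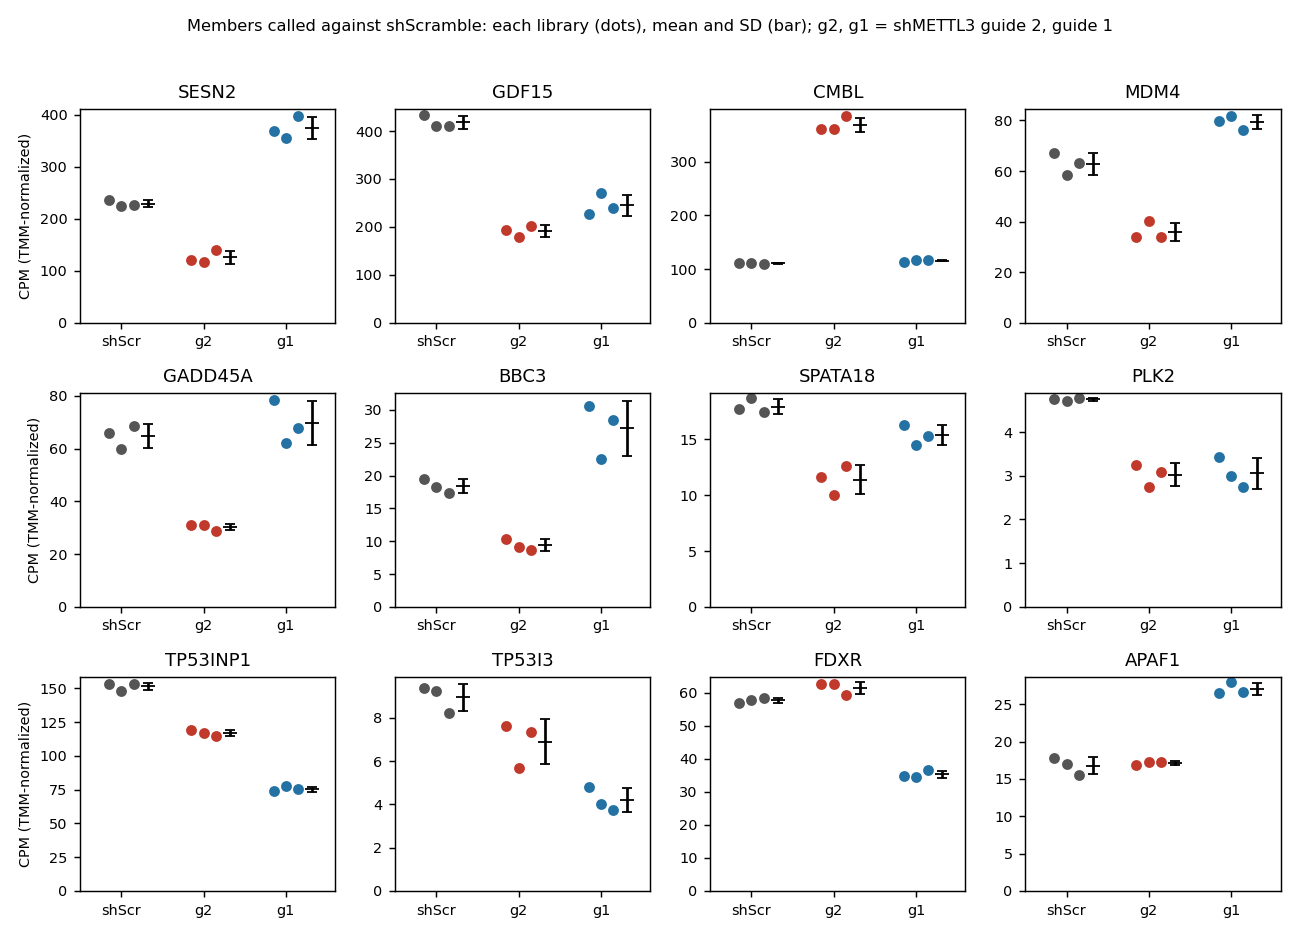
CPM in each library (dots) for the 12 members called in at least 1 comparison with shScramble, 1 panel a gene, with shScramble in grey, guide 2 in red and guide 1 in blue, and the mean and SD of 3 libraries beside the dots. Every vertical axis starts at 0 and has its own scale, and CMBL is at 360 to 384 CPM with guide 2 against 110 to 112 in shScramble.

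Among the 5 growth arrest genes, GADD45A and PLK2 fell with guide 2 and PLK2 fell with guide 1. GADD45A (ENSG00000116717; chromosome 1, 67685061 to 67688338), a small stress-induced protein that takes part in cell cycle arrest and repair, was at 65.8, 59.9 and 68.6 CPM in shScramble, 31.1, 30.9 and 28.8 with guide 2, and 78.5, 62.1 and 67.9 with guide 1. Its level with guide 2 lay below both other groups, which overlapped each other. The log2 fold change was -1.09 with guide 2 (2.14-fold lower, SE 0.075, adjusted p = 6.43e-11), 0.10 with guide 1 (SE 0.0692, adjusted p = 0.19) and -1.20 between the hairpins (SE 0.0746, adjusted p = 3.55e-12).

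PLK2 and PLK3 encode polo-like kinases of the stress response. PLK2 (ENSG00000145632; chromosome 5, 58453982 to 58460260) was the lowest member per length, at 4.76, 4.71 and 4.78 CPM in shScramble, 3.25, 2.75 and 3.08 with guide 2, and 3.44, 2.99 and 2.74 with guide 1, which rests on 68 to 150 counts a library. It was lower in all 6 libraries with a METTL3 hairpin. The log2 fold changes were -0.65 (SE 0.155, adjusted p = 7.09e-04) and -0.63 (SE 0.15, adjusted p = 5.02e-04). These lie close to the 1.5-fold limit: the first call was lost without guide 2 replicate 2 (-0.58) and the second without guide 1 replicate 3 (-0.56).

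PLK3 (ENSG00000173846; chromosome 1, 44800225 to 44805990) was at 12.5, 10.6 and 10.7 CPM in shScramble, 12.3, 10.4 and 12.4 with guide 2, and 7.41, 7.27 and 8.53 with guide 1. The libraries labelled guide 1 lay below the other 6. The difference between the hairpins, 0.59 (SE 0.108, adjusted p = 1.75e-05), was just past the limit, and it was 0.56, and not called, when guide 2 replicate 1, guide 2 replicate 3, guide 1 replicate 1 or guide 1 replicate 2 was left out. Against shScramble the log2 fold change with guide 1 was -0.54 (adjusted p = 5.32e-05), and it was called without shScramble replicate 2 (-0.60) or guide 1 replicate 3 (-0.62). The antiproliferative gene BTG2 and the cyclin gene CCNG1 were not called in any comparison, with log2 fold changes against shScramble between -0.11 and 0.25, and of 0.19 (BTG2) and -0.19 (CCNG1) between the hairpins.

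Of the 11 apoptosis genes, BBC3 fell with guide 2, and TP53INP1 fell and APAF1 rose with guide 1. BBC3 (ENSG00000105327; chromosome 19, 47220822 to 47232766), which encodes PUMA, an activator of mitochondrial apoptosis, was at 19.5, 18.3 and 17.3 CPM in shScramble, 10.4, 9.17 and 8.66 with guide 2, and 30.6, 22.5 and 28.5 with guide 1. The 3 groups did not overlap, in the same order as for SESN2 and MDM4. The log2 fold change was -0.97 with guide 2 (SE 0.107, adjusted p = 2.90e-08) and -1.53 between the hairpins (SE 0.103, adjusted p = 1.18e-12). With guide 1 it was 0.56 (SE 0.0927, adjusted p = 8.44e-06), under the limit, and it was called without shScramble replicate 1 (0.61) or guide 1 replicate 2 (0.68).

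TP53INP1 (ENSG00000164938; chromosome 8, 94925972 to 94949411), a stress-induced protein that promotes p53 activity and autophagy, was at 153, 148 and 153 CPM in shScramble, 119, 117 and 115 with guide 2, and 73.6, 77.3 and 75.3 with guide 1. The groups stepped down without overlap, and the libraries within each lay close together. It was 2.01-fold lower with guide 1 (log2 fold change -1.0, SE 0.0446, adjusted p = 2.17e-17) and lower by less than 1.5-fold with guide 2 (-0.37, SE 0.0439, adjusted p = 3.53e-08). Between the hairpins the log2 fold change was 0.63 (SE 0.0451, adjusted p = 4.70e-13).

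APAF1 (ENSG00000120868; chromosome 12, 98645141 to 98735433), the scaffold of the apoptosome, was at 17.8, 17 and 15.5 CPM in shScramble, 16.8, 17.3 and 17.2 with guide 2, and 26.5, 28 and 26.6 with guide 1. Only the libraries labelled guide 1 stood apart, with a log2 fold change of 0.68 (SE 0.0719, adjusted p = 2.33e-09) against 0.02 with guide 2 (adjusted p = 0.818) and -0.66 between the hairpins (SE 0.0733, adjusted p = 4.69e-09). Another gene, ANKS1B on the opposite strand, shares 9.48% of its exon bases, and the strand setting of the counting is not stated.

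The death receptor genes did not pass the 1.5-fold limit. TNFRSF10B, which encodes the TRAIL receptor DR5, was at 296, 278 and 276 CPM in shScramble, 199, 196 and 205 with guide 2, and 207, 211 and 201 with guide 1. It was lower in all 6 libraries with a METTL3 hairpin, by -0.50 (SE 0.0446, adjusted p = 1.75e-10) and -0.46 (SE 0.0444, adjusted p = 4.74e-10) on the log2 scale, and the hairpins differed by -0.04 (adjusted p = 0.368). FAS was low in all groups, with means of 3.8, 3.87 and 4.72 CPM in shScramble, guide 2 and guide 1. ACTA2, on the opposite strand, shares 11.7% of its exon bases.

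The other 6 apoptosis genes were not called in any comparison. AEN, a nuclease that enhances apoptosis, was at 98.1, 95.3 and 96.3 CPM with guide 1 against 73.7, 67.6 and 68.2 in shScramble, a log2 fold change of 0.47 (adjusted p = 1.51e-09), and at 68.7, 69.3 and 72.7 with guide 2. PHLDA3, an inhibitor of AKT, had a mean of 28.8 CPM in shScramble, 19.9 with guide 2 (log2 fold change -0.54, adjusted p = 2.42e-04) and 28.1 with guide 1. It passed the limit without guide 2 replicate 1 (-0.62), and another gene shares 19.1% of its exon bases. BAX, ZMAT3, TRIAP1 and PIDD1 had log2 fold changes between -0.33 and 0.18 against shScramble.

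Of the 4 genes of DNA repair and nucleotide supply, 0 were called in any comparison. DDB2, which recognises ultraviolet damage and was the member with a full p53 site, was at 37.4, 31.1 and 34 CPM in shScramble, 41.7, 40.9 and 43.4 with guide 2, and 29.1, 30.4 and 28.7 with guide 1. The 3 groups did not overlap, and the largest difference, between the hairpins, was 0.51 on the log2 scale (SE 0.0656, adjusted p = 6.08e-08). XPC, the other damage recognition gene of the list, had log2 fold changes of -0.35 with guide 2 and -0.14 with guide 1. Opposite-strand genes share 30.4% of its exon bases. RRM2B, the p53-inducible subunit of ribonucleotide reductase, was at a mean of 73.8 CPM in shScramble, 72.5 with guide 2 and 57.5 with guide 1 (log2 fold change -0.36, adjusted p = 1.61e-06). POLH, a polymerase that copies past damaged bases, had means of 27.8, 28.9 and 27.2 CPM in shScramble, guide 2 and guide 1.

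Levels can be compared between genes only per length, as RPKM (CPM divided by the exon length in kilobases, from the exon lengths in the files). In shScramble the 31 genes ranged from 0.996 RPKM (PLK2) to 200 RPKM (GDF15), with a median of 9.08. GDF15 stood first at 200 ± 6.18 RPKM (SD, n = 3), followed by SESN2 (66.4 ± 1.87), TNFRSF10B (54.9 ± 2.16) and CCNG1 (50 ± 1.86). With guide 2, CMBL stood first at 111 ± 4.04 RPKM, having been sixth in shScramble at 33.5 ± 0.407, and GDF15 was second at 91.7 ± 6.08. With guide 1, GDF15 (117 ± 11 RPKM) and SESN2 (108 ± 6.18) led and differed by less than their spread. The median coefficient of variation of a member within a group was 4.91% in shScramble, 4.11% with guide 2 and 5.8% with guide 1.

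**Figure D4:**
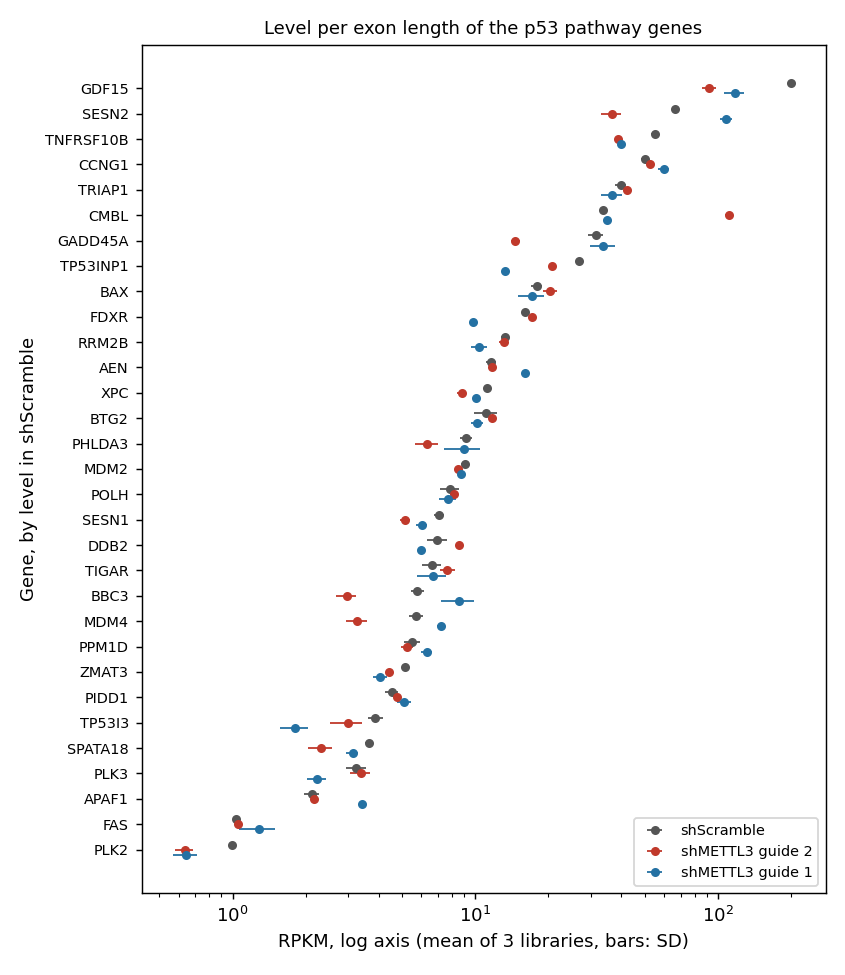
Mean RPKM of each of the 31 genes in shScramble (grey), guide 2 (red) and guide 1 (blue) on a log axis, ordered by the level in shScramble, with the SD of 3 libraries as a bar. The order runs from GDF15 at the top to PLK2 at the bottom, and CMBL with guide 2 lies furthest to the right of its own shScramble level.

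The groups did not overlap for 21 of the 31 genes with guide 2 (6 higher and 15 lower) and for 22 with guide 1 (9 higher and 13 lower). Over all genes, 32.5% were non-overlapping higher and 34.1% lower with guide 2, and 36.5% and 34.5% with guide 1, beside 19.4% and 48.4% of the members with guide 2, and 29% and 41.9% with guide 1. The members' share was below that of all genes on the higher side and above it on the lower side, by less with guide 1 than with guide 2. All genes here include the lowest tertile of mean expression, which holds no member. Shares of all genes by tertile were not counted for this measure.

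Other parts of the pathway were followed in 4 further lists. Their counts stand beside 8.85% of all genes called higher and 20.4% lower with guide 2, and 21.2% and 16.5% with guide 1. In the highest tertile of mean expression these shares were 10.7% and 3.38% with guide 2, and 10.7% and 10.3% with guide 1. Of 26 upstream regulators of p53, 3 rose and 2 fell with guide 2 (median log2 fold change 0.00), and 5 rose and 0 fell with guide 1 (median 0.20). These were 11.5% higher and 7.69% lower with guide 2, and 19.2% higher with guide 1. The last is close to the share of all genes and above that of the highest tertile, and most regulators were highly expressed. The checkpoint kinase genes CHEK1 and CHEK2 rose with guide 2, by 0.90 (adjusted p = 2.60e-13) and 0.85 (adjusted p = 1.66e-11), and DAXX, a partner of MDM2, by 0.65. ATM, the kinase that signals DNA breaks to p53, fell with guide 2 from a mean of 87.1 to 49.5 CPM (log2 fold change -0.81, adjusted p = 9.93e-13). CDKN2A, whose locus encodes the MDM2 antagonist ARF besides a cyclin-dependent kinase inhibitor, was at 16.4, 18.4 and 21.9 CPM in shScramble, 8.28, 7.61 and 6.44 with guide 2, and 197, 152 and 177 with guide 1. It fell with guide 2 (-1.33, adjusted p = 1.91e-04) and rose with guide 1 (3.22, adjusted p = 3.58e-08), and gene counts do not separate its products. CHEK1 (1.51) and PRKDC (0.98), a kinase of DNA break repair, also rose with guide 1.

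Of 64 other p53 target genes tested, 8 rose and 6 fell with guide 2 (median 0.09) and 9 rose and 12 fell with guide 1 (median -0.19), that is, 12.5% higher and 9.38% lower with guide 2 and 14.1% and 18.8% with guide 1. With guide 2 the 3 largest rises were IGFBP3 (1.42), which binds insulin-like growth factors, RAP2B (1.32), a small GTPase, and PCNA (1.17), the sliding clamp of DNA replication. The 3 largest falls at a mean of at least 1 CPM were VCAN (-3.57), a matrix proteoglycan at 2 to 6 counts a library with guide 2, SLC12A4 (-1.03) and SLC4A11 (-0.94). With guide 1, VCAN was among the largest rises (3.28), beside EDA2R (4.29), a receptor of ectodysplasin with 5, 3 and 11 counts in shScramble and 102 to 156 with guide 1, and PMAIP1 (2.10), which encodes the apoptosis activator NOXA and rose from 29.4, 28.6 and 33.7 CPM to 144, 121 and 126. The fitted folds of EDA2R with guide 1 and VCAN with guide 2 rest on these low counts and depend on the prior count. TNFRSF10A (-1.11), THBS1 (-1.11) and GLS2 (-0.93) fell with guide 1. RPRM had 0 counts in the 3 guide 2 libraries and 2 to 7 in shScramble.

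**Figure D5:**
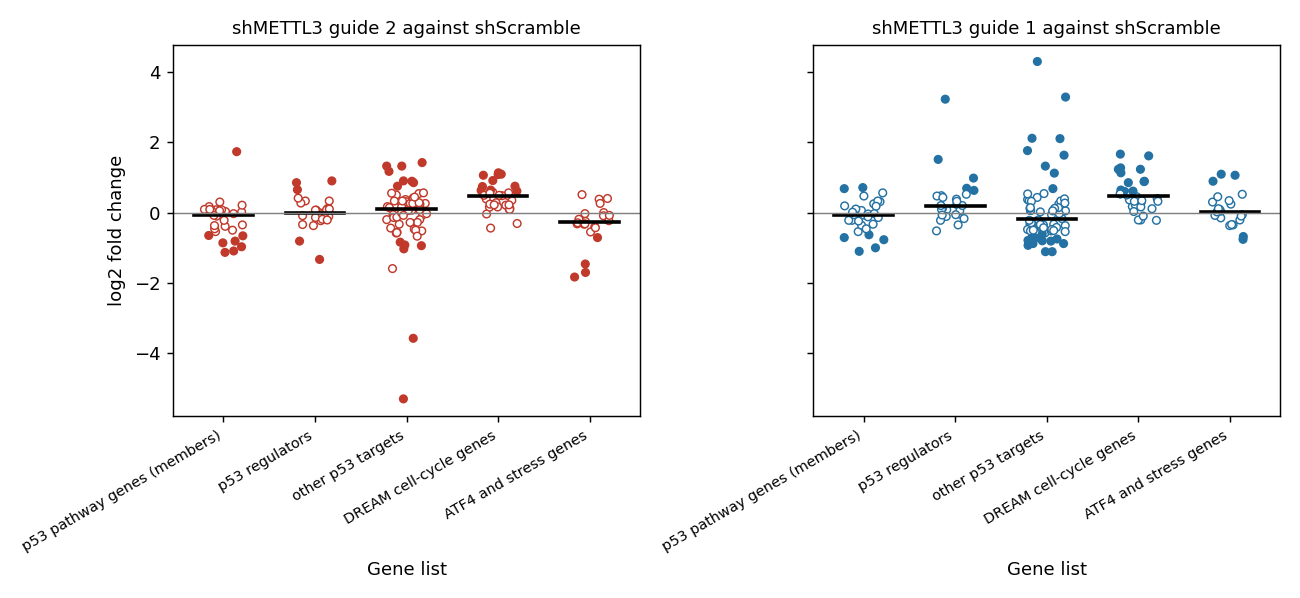
Log2 fold change of each tested gene of 5 lists (dots, filled where called) with guide 2 (left, red) and guide 1 (right, blue) against shScramble, with the list median as a black line. The median of the cell-cycle list lies at 0.49 with guide 2 and 0.47 with guide 1, that of the ATF4 list at -0.27 and 0.03, and the lowest dot, RPRM, rests on 0 counts with guide 2.

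Genes that p53 represses indirectly through the DREAM complex, which silences cell cycle promoters, made up the third list. Of 32, 10 rose and 0 fell with guide 2 (31.2% higher, median 0.49), and 13 rose and 0 fell with guide 1 (40.6% higher, median 0.47), beside 8.85% and 21.2% of all genes higher. MYBL2 rose from a mean of 68.7 CPM in shScramble to 150 with guide 2 (1.13, adjusted p = 1.08e-15) and 217 with guide 1 (1.66, adjusted p = 4.19e-20). CDK1 (1.09) and FOXM1 (1.08) were next with guide 2, and AURKB (1.61) and TPX2 (1.27) with guide 1. Many genes of this list are also read as markers of proliferation.

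SESN2, GDF15 and GADD45A also respond to ATF4, a transcription factor of the integrated stress response. For this reason 22 genes of that and related stress responses were listed. XBP1, HERPUD1 and HSPA5 belong mainly to the related responses. With guide 2, 0 rose and 4 fell (median -0.27): ATF3, PPP1R15A, DDIT3 and HSPA5. These 4 were 18.2% of the list, beside 20.4% of all genes called lower. Most of the list was highly expressed, and 3.38% of genes in the highest tertile of mean expression were called lower. At an adjusted p under 0.05 alone, 14 of the 22 were lower and 4 higher, beside 31.7% and 30% of all genes. ATF4 itself was higher with guide 2, at a mean of 1080 CPM against 829 in shScramble (log2 fold change 0.38, adjusted p = 1.37e-07). The others that were higher were PSAT1 (1250 against 945 CPM), PHGDH (1305 against 917) and SLC7A5 (971 against 813), all under the 1.5-fold limit. ATF3 was at 101, 103 and 107 CPM in shScramble, 28.6, 27.7 and 31.4 with guide 2, and 215, 171 and 194 with guide 1, that is, -1.83 with guide 2 (adjusted p = 5.88e-14) and 0.89 with guide 1 (adjusted p = 2.18e-10). PPP1R15A, which reverses the translational arrest of the integrated stress response, fell with guide 2 (-1.70) and rose with guide 1 (1.06). DDIT3, which encodes the stress factor CHOP, fell with both (-1.46 and -0.76). With guide 1, 3 genes rose and 2 fell (median 0.03), with CTH (1.09) the largest rise, and NUPR1 (-0.68) fell besides DDIT3.

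Scaling mattered for the comparisons with guide 2. When libraries were scaled by their total count only, without TMM factors, the median over all genes with guide 2 moved from -0.04 to -0.19, and 10 members were called lower instead of 7, with SESN1 (-0.61), TNFRSF10B (-0.65) and PHLDA3 (-0.69) added. The 8 members called with guide 2 under TMM were called in the same direction with library size alone and with DESeq2's size factors. Under library size alone the cell-cycle list had 7 genes higher and 1 lower with guide 2 (median 0.34), and the list of other targets had 8 higher and 13 lower (median -0.06).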

How the data were processed

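Libraries of RNA from LNCaP:C4-2 cells were grouped by the hairpin named in the sample titles. The authors trimmed adapters (Trim Galore, cutadapt, FastQC), discarded low-quality reads, aligned the reads with STAR to GRCh38 (Ensembl release 83) and counted them per gene with featureCounts. They deposited raw counts for 60675 genes, without normalization or pooling, and the strand setting and the treatment of multi-mapping reads are not given in the sources used here, so overlapping genes are uncertain. Symbols were matched for 56558 identifiers (93.2%), and there were 0 rows without a gene and 0 pairs of identical libraries.

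CPM were scaled by TMM factors, and RPKM used the exon lengths in the files. The test was edgeR 4.0.16's quasi-likelihood F test (R 4.3.3, robust, filterByExpr with a minimum count of 10 and a minimum total of 15), with all 9 libraries in 1 model and no covariates. Fold changes are hairpin against shScramble or guide 2 against guide 1, on the log2 scale, with standard errors from that model, and p-values were adjusted over all 19278 genes tested. The common biological coefficient of variation was 0.0512. Between 21899501 and 30897639 counts were assigned per library, and a level of 3 counts was taken as the floor. The procedure was tested on simulated counts with known changes.

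The gene lists held 26 regulators, 70 other targets (1 not found by symbol, 64 tested), 32 DREAM genes, 22 ATF4 and stress genes and 30 markers. The members, these lists and the tests were chosen with earlier results of these data known. Members called in any comparison are given by library, as are MDM2, TNFRSF10B, AEN and DDB2, which were not called. The other members are given by means, ranges and counts. From each other list, at most 3 called genes a direction are named by the size of change. They have a mean of 1 CPM or more and no overlap of the groups. RPRM, HSPA5, ATF4, PSAT1, PHGDH and SLC7A5 were named after their values were seen. The alternatives were DESeq2 1.42.0, its size factors, library size alone, the adjusted p alone, no filter, a filter at a mean of 1 CPM, a block for the replicate number, a fit to the 6 libraries of a comparison, and each library left out. Scaling of the other lists was added after the data were seen. Promoter windows came from RefSeq (GRCh38.p14).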

Additional observations from a re-analysis of the deposited data

Results flagged for a closer look

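Of the 31 genes, 10 differed between guide 2 and guide 1 in the direct test (edgeR's quasi-likelihood test, adjusted p under 0.05 and at least 1.5-fold), where 47.3% of all genes were called in either direction. Against guide 1, expression with guide 2 was lower for SESN2 (log2 difference -1.57), BBC3 (-1.53), GADD45A (-1.20), MDM4 (-1.14) and APAF1 (-0.66). It was higher for CMBL (1.67), FDXR (0.80), TP53I3 (0.71), TP53INP1 (0.63) and PLK3 (0.59). For SESN2, BBC3 and MDM4 the shScramble libraries lay between the hairpins, for GADD45A and CMBL shScramble lay with or near guide 1, and for APAF1, FDXR and PLK3 it lay with or near guide 2. For TP53I3 and TP53INP1 shScramble lay above both. METTL3 RNA was at a mean of 16.3 CPM with guide 2 and 29.7 with guide 1, so the groups differed in the target as well as in these genes. Groups of 3 libraries were too small for a check of single outlying libraries.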

How the results depend on the processing

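Of 1302 values of single members under the alternatives, 1213 kept their direction and their side of the threshold, 11 lost a call, 49 gained one and 29, from 17 gene and comparison pairs, changed sign, with 0 of these called before or after. The cause of each change was not tested. Without TMM factors (library size alone), 1012 genes were called higher with guide 2 in place of 1706 and 4865 lower in place of 3939, so that 17.2% of calls in place of 30.2% were higher. Between the hairpins 2 members were then higher and 7 lower (22.2% higher in place of 50%): TP53I3 (0.57), TP53INP1 (0.50) and PLK3 (0.46) lost their call, and PHLDA3 (-0.63) and AEN (-0.60) gained one. With guide 2 against shScramble it turned the sign of FDXR (-0.06), FAS (-0.12), BTG2 (-0.07), AEN (-0.14), PLK3 (-0.10), CCNG1 (-0.09), TRIAP1 (-0.06), POLH (-0.09), APAF1 (-0.13) and PIDD1 (-0.07), and between the hairpins of ZMAT3 (-0.02) and POLH (-0.05). Without the filter, PLK2 between the hairpins was at 0.01. At a minimum mean of 1 CPM, FAS (-0.02), AEN (-0.04) and APAF1 (-0.03) turned with guide 2, and PLK3 between the hairpins (0.55) lost its call. With only the 6 libraries compared, AEN was at -0.01.

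Leaving out 1 library at a time, 5 to 8 members were lower and 1 higher with guide 2, 5 to 6 lower and 2 to 3 higher with guide 1, and 5 to 6 lower and 4 to 5 higher between the hairpins. The values that changed sign ranged from -0.02 to 0.05 (AEN) and from -0.03 to 0.07 (APAF1) with guide 2, from -0.08 to 0.05 (POLH), -0.10 to 0.09 (TIGAR), -0.15 to 0.01 (BAX) and -0.17 to 0.05 (PHLDA3) with guide 1, and from -0.09 to 0.08 (PLK2) between the hairpins. Between the hairpins, PHLDA3 was called (-0.59) without guide 1 replicate 2.

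With the adjusted p alone, 4 members were higher and 14 lower with guide 2, 8 and 13 with guide 1, and 11 and 13 between the hairpins. Over all genes the numbers were 5792 and 6118, 6818 and 6370, and 6693 higher between the hairpins. DESeq2 gave the same member counts as edgeR in the 3 comparisons. Libraries with the same replicate number did not deviate together (correlations from -0.10 to 0.05, and from -0.05 to 0.11 for different numbers). Deviations from a mean of 3 libraries cannot settle whether the numbers pair the samples. With the replicate block the member counts stayed at 1 and 7, 2 and 5, and 5 and 5. Over all genes, 1670 and 3824 were then called with guide 2, 4043 and 3097 with guide 1, and 3653 and 5374 between the hairpins. Changes close to 1.5-fold (PLK2, SPATA18, PLK3, PHLDA3 and BBC3 with guide 1) crossed the limit in at least 1 fit that left out a library.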

Other observations

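Neighbouring genes were compared with some members, chosen after their values were seen, by the median log2 fold change of the 20 nearest tested genes on the chromosome. Around CMBL, which rose by 1.73 with guide 2, the neighbours' median was 0.08. GDF15 (-1.13 with guide 2) had a neighbour median of 0.21 (quartiles -0.28 and 0.40), and SESN2 (-0.86) one of 0.27 (quartiles -0.71 and 0.43). With guide 2, MDM4 (-0.81) lay within its neighbours' quartiles (-1.06 and 0.26), and BBC3 (-0.97) lay just below its neighbours' lower quartile (-0.91). Around GADD45A, at 0.10 with guide 1, the median of its neighbours over 5.24 Mb was 0.96 (quartiles 0.46 and 1.79) with guide 1 and -0.27 with guide 2, so the neighbours were higher with guide 1 and GADD45A was not called. The neighbours of PHLDA3, itself at -0.04 with guide 1, had a median of -0.78 there.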
